A study of Mus musculus with 6 samples.

Results

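Haem synthesis and iron uptake genes were followed as 9 genes, Alas2, Alad, Uros, Urod, Cpox, Ppox, Fech, Tfrc and Slc25a37, out of 21883 protein-coding genes of the RefSeq annotation. They were chosen by function, and every ATAC-seq peak in or within 20 kb of their RefSeq spans was taken, which gave 65 of the 75961 regions of the series. ATAC-seq marks open chromatin by the sites at which a transposase inserts sequencing adapters. The cells were bone marrow progenitors of C57BL/6 mice from which lineage-positive cells had been depleted, a mixture enriched for stem and progenitor cells. The 2 groups were UTX_WT (wild type, 3 samples, here WT1 to WT3) and UTX_KO (knockout, 3 samples, KO1 to KO3) for Utx, also called Kdm6a, which encodes a histone demethylase. The labels used here give no age, sex, Cre driver or deleted exons, and they do not say whether samples came from separate animals, so p-values measure only the spread between these samples. Each sample is a list of peak positions with no score, so the measures are the presence of a peak, its width, and the bases that peaks cover near a gene. A region is a stretch of overlapping peaks from any of the 6 samples. It is called lost where every wild-type sample and no knockout sample has a peak, and gained in the opposite case.

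Haem is built in a chain of enzymes that starts and ends in the mitochondrion. Alas2 encodes the erythroid form of aminolevulinate synthase, the rate-limiting opening step, and Fech encodes ferrochelatase, which inserts iron at the end. Alad, Uros, Urod, Cpox and Ppox encode the steps between them. Tfrc encodes the transferrin receptor, through which red cell precursors take up iron, and Slc25a37 encodes mitoferrin, which carries it into the mitochondrion. In red cell precursors these genes are known targets of the transcription factor GATA1, and Alad and Uros are each known to be transcribed from a housekeeping and an erythroid promoter.

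Sequences before the start site are shown for 4 members. These are Alas2, the inner start of Uros and Cpox, which were the starts with a GATA motif, and Ppox, which had the smallest difference of the 9 members and no match to any motif searched. The GATA motif, the site bound by GATA factors, was searched as AGATAA and, in its variant form, as TGATAA. Each is the 250 bases before a RefSeq start in GRCm38.p6 (mm10), on the strand of the gene and 5′ to 3′, at chrX:150547167-150547416 (plus strand), chr7:133702501-133702750 (minus), chr16:58669958-58670207 (plus) and chr1:171281187-171281436 (minus). Capitals mark the match to AGATAA or TGATAA, which in all 3 sequences lies on the opposite strand and so reads as its reverse complement. Other forms that contain GATA were not searched and are not marked.
Alas2: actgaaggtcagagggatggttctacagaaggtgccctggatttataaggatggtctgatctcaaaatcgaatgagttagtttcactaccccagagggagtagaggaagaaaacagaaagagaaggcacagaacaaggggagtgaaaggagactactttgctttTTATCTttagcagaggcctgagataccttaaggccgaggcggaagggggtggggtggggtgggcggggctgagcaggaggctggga
Uros (inner start): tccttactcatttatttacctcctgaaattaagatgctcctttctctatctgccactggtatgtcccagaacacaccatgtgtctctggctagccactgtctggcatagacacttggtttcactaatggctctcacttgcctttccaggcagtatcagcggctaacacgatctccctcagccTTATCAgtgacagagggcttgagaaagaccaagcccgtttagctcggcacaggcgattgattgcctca
Cpox: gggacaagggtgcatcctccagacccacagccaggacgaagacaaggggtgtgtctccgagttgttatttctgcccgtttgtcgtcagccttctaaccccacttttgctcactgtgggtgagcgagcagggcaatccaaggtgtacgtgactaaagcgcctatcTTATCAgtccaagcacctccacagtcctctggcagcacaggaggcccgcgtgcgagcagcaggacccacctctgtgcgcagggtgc
Ppox: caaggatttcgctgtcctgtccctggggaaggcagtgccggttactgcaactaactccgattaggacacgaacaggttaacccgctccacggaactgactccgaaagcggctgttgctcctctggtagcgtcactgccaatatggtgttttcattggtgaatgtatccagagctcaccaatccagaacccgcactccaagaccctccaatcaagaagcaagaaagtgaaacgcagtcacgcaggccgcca
The capitals begin 86 bases before the start in Alas2 and Cpox and 68 bases before it in Uros. A GATA motif was present before 3 of the 10 RefSeq starts of the 7 members with an entry in the RefSeq promoter table, and in 16.6% of all 32817 windows of this length. CACCC, a core of the site bound by KLF factors, was present 3 times in Alas2 and 4 times in Cpox. It was absent from the inner Uros and Ppox windows. Of the windows not printed, those of the inner Alad start and both Tfrc starts held it. Those of the outer Alad, outer Uros and Urod starts did not. Over all windows, 52.0% held it at least once and 21.1% more than once. The other motifs searched, all on both strands, were the E-box (CANNTG), a core bound by ETS factors (CCGGAA) and the AP-1 site (TGAGTCA), found in 21733, 3944 and 1465 of the 32817 windows. The inner Uros window held 3 E-boxes and the other printed windows none, and 0 matches to another motif overlapped a capital. A match describes these letters and does not show that a factor binds.

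Knockout lists were shorter, with 44576 to 50249 peaks covering 26.8 to 29.9 Mb, against 57405 to 57917 peaks covering 32.6 to 33.8 Mb in wild type. Covered bases near a gene were therefore scaled to the mean total of the 6 samples before testing. Sequencing depth is unknown. Peaks near 8 erythroid marker genes covered a summed 27.2 to 32.3 kb (scaled) in wild type and 10.1 to 11.2 kb in knockout, and all 8 genes were called lower (limma). Peaks near 8 B lymphoid markers covered 18.75 to 20.45 kb and 37.05 to 49.03 kb, with 7 of 8 called higher, and 4 of 6 megakaryocyte markers were called lower (16.04 to 18.71 against 11.04 to 11.97 kb). Granulocyte and monocyte markers covered 28.88 to 35.61 kb in wild type and 22.63 to 29.96 kb in knockout, and 3 of 6 tested were called lower. Stem and progenitor markers covered 21.25 to 24.23 kb and 19.31 to 20.3 kb, with 3 of 6 called lower, so the labelled cell population had peaks at its markers in both groups. The T and NK markers covered 3.17 to 3.51 kb in wild type and 2.88 to 3.49 kb in knockout, with 0 of 3 tested called. Ly6g and Cd8a had no peak in any sample, and Ncr1 had a single peak, of 199 bp, in WT2 alone. The part of these shifts in the results below was not tested, and in bulk samples fewer cells of a type and less open chromatin per cell cannot be told apart. Kdm6a had 4, 5 and 5 peaks in wild type and 6, 6 and 5 in knockout, and its covered bases were called higher in knockout (0.44, limma adjusted p = 0.0237), but not without scaling (0.20, limma adjusted p = 0.235). Neither tests the deletion, because the deleted part is not known here.

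Open chromatin near 7 of the 9 members was lower in knockout samples. These were Alas2, Alad, Uros, Cpox, Fech, Tfrc and Slc25a37 (limma on log2 of covered bases + 200 bp, Benjamini-Hochberg adjusted over 16237 genes at 0.05), where 21.5% of all genes tested were called lower. The 2 others, Urod and Ppox, did not pass, and 0 members were higher at either the adjusted or an unadjusted p of 0.05, where 16.2% of all genes were called higher. The median difference over the members was -0.82 on the log2 scale, against -0.02 over all genes tested. Without scaling, which moves the median of all genes to -0.24, all 9 members and 41.9% of all genes were called lower. The split of calls over all genes was 3490 lower and 2630 higher with scaling, 6802 and 1255 without it, and 3060 and 3201 after centring on the median of all genes.

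**Figure D1:**
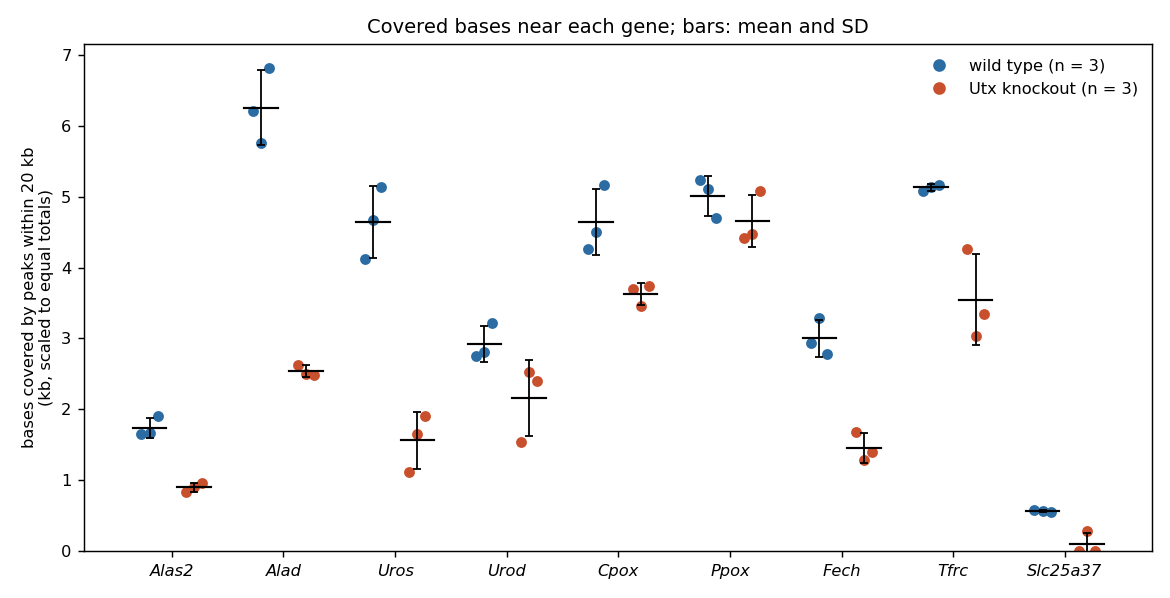
Bases covered by peaks in or within 20 kb of each gene, in kb and scaled to equal totals, for 3 wild-type (blue) and 3 knockout (orange) samples, with mean and SD. The groups are apart for every gene except Ppox.

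The members together had 55, 56 and 57 peaks in the wild-type samples and 29, 31 and 29 in the knockout samples. As a share of all peaks in each list, this was 0.958 to 0.989 per 1000 in wild type and 0.617 to 0.651 per 1000 in knockout. Every knockout sample had fewer peaks than every wild-type sample for 7 of the 9 genes, where 28.3% of all genes tested showed this order. With each list reduced to its 44576 widest peaks, the number of the shortest list, this held for 5 of the 9 genes and 14.3% of all genes tested. The opposite order was seen for 0 members, and for 4.25% of all genes tested. Of the 65 regions near the members, 18 (27.7%) were lost, where 10.7% of the 62091 regions near any protein-coding gene were lost. At least 1 lost region was found for 7 of the 9 members, where 36.3% of all genes with a region had one. Counting only regions present in all 3 wild-type samples, 18 of 49 (36.7%) were lost, where the share over all genes was 17.0%. No region near a member was gained, where the share over all genes was 4.05%. A further 25 regions were present in some samples of either group, and 21 of these were in more wild-type than knockout samples (68.8% for all such regions near genes) and 4 in more knockout than wild-type samples (24.4%).

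**Figure D2:**
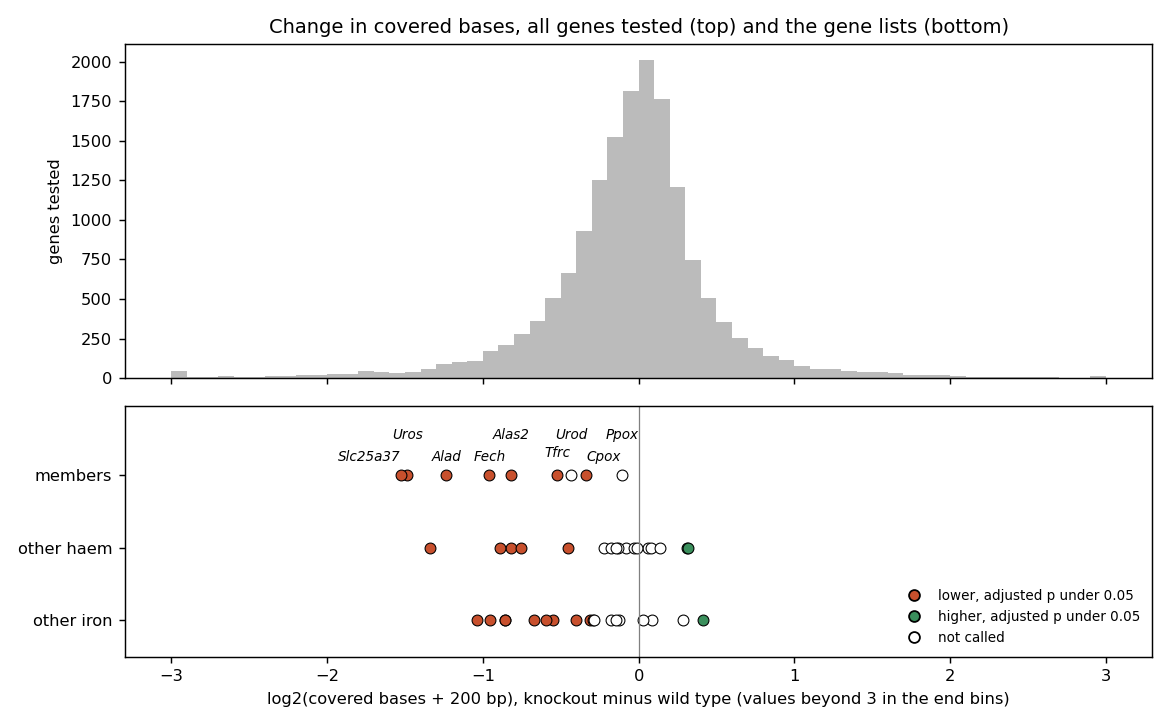
The upper panel counts all genes tested by their log2 difference in covered bases (knockout minus wild type), and the lower panel places the 9 members and the other haem and iron genes on the same axis. All 9 members lie left of 0, from -1.53 for Slc25a37 to -0.10 for Ppox; the value of Slc25a37 is -2.73 with a pseudocount of 50 bp and -0.53 with 1000 bp.

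Both regions inside Alas2, the gene of the rate-limiting erythroid enzyme, were lost. On chromosome X, the region at 150549538 to 150550249, with its middle 2.5 kb after the start, had peaks of 561, 569 and 712 bp in wild type and none in knockout. The other, at 150564612 to 150565130 and 17.5 kb after the start, had peaks of 395, 429 and 519 bp in wild type and none in knockout. In RefSeq the span of Apex2 overlaps that of Alas2 and covers both positions. No sample had a peak over the Alas2 start site whose sequence is given above. The third region, at 150587906 to 150588831, overlapped the start of the neighbouring gene Pfkfb1 and covered 827 ± 50.02 bp in wild type (SD, n = 3) and 821 ± 76.8 bp in knockout (n = 3), so the groups overlapped there. Each wild-type sample thus had 3 peaks and each knockout sample 1, and covered bases fell by 0.82 ± 0.10 (SE) on the log2 scale (limma, adjusted p = 0.000509).

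Alad, encoding the dehydratase that makes porphobilinogen, had the region with the largest loss of covered bases among all 65. Its peaks covered 6658, 6163 and 7560 bp in wild type and 2315, 2454 and 2193 bp in knockout. The groups were far apart, with a log2 difference of -1.24 ± 0.08 (SE; limma, adjusted p = 2.99e-05). Inside the gene on chromosome 4, a region at 62515280 to 62518080, with its middle 3.2 kb after the inner of 2 RefSeq starts, was covered for 2574, 2634 and 2643 bp in wild type. In knockout it was covered for 0, 219 and 0 bp, so it does not count as lost, although its mean covered bases fell by 97.2%. Lost regions lay inside the gene at 62506624 to 62507263 and outside it at 62527649 to 62528278. The region over both starts (62518772 to 62520327) had peaks in all 6 samples and was covered for 1134 ± 379 bp in wild type and 604 ± 81.1 bp in knockout (SD, n = 3 each). The region at the start of the neighbouring gene Hdhd3 covered 726 ± 19.97 bp and 759 ± 46.5 bp, with overlapping groups. The region over the starts of Pole3 and 4933430I17Rik (62524489 to 62525649) covered 999 ± 111 bp and 813 ± 25.1 bp, and was lower in every knockout sample without scaling.

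Uros, which encodes the synthase that closes the tetrapyrrole ring, had the most lost regions of the members, 6 of 11. Its peaks covered 4426, 5009 and 5705 bp in wild type and 983, 1621 and 1689 bp in knockout, a log2 difference of -1.48 ± 0.17 (SE; limma, adjusted p = 0.000295). The RefSeq promoter table holds 2 starts for the gene on chromosome 7, and they differed. The outer start, at 133709295, lay in a region (133708615 to 133709758) that also holds the start of Bccip and was covered for 1131, 1090 and 1134 bp in wild type and 983, 981 and 1114 bp in knockout, so the groups overlapped. The inner start, at 133702500, lay in a lost region (133702239 to 133703034) with peaks of 749, 626 and 796 bp in wild type and none in knockout. That region holds the whole inner sequence given above. It was the 1 lost region of the 18 that overlapped a start in the promoter table.

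The other lost regions of Uros overlapped neither of these 2 starts, with middles from -1.2 to 38.3 kb from the outer start. One at 133710068 to 133710974 overlapped the upper end of the gene span and was covered for 790 ± 88.7 bp in wild type (SD, n = 3). On this minus-strand gene that is the 5′ end, at 133710467, where the promoter table holds no start. Another, inside the gene at 133697947 to 133698820, had the highest mean coverage in wild type of the 18 lost regions, at 804 ± 86.9 bp (n = 3). Regions of 322 ± 51.7 and 290 ± 14.2 bp lay below the gene at 133684150 to 133684518 and 133684728 to 133685066. The last, at 133670744 to 133671212 (365 ± 91.1 bp), lay inside Edrf1. A region inside Bccip at 133715419 to 133715719 had peaks in KO2 and KO3 and in no wild-type sample.

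**Figure D3:**
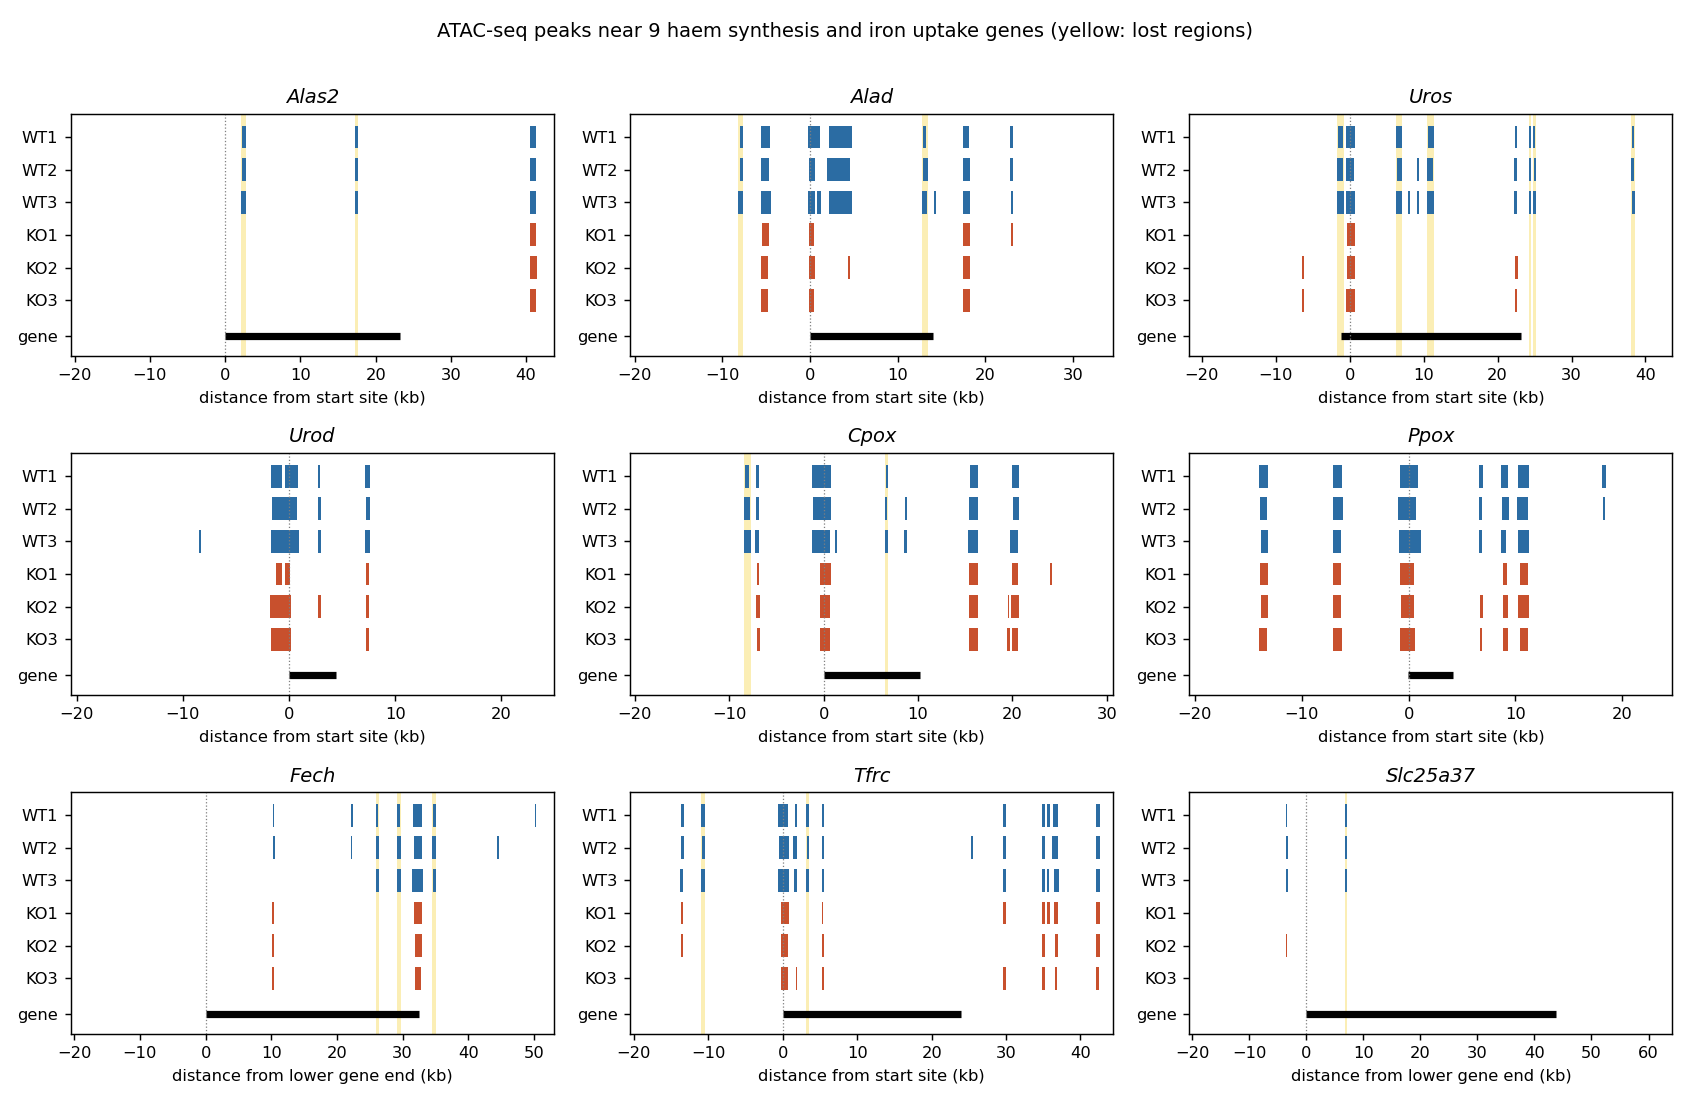
Peaks of each sample (rows; blue wild type, orange knockout) in and within 20 kb of each gene, by distance in kb from the outer RefSeq start in the direction of the gene (from the lower gene end for Fech and Slc25a37); the black bar is the gene and yellow marks the 18 lost regions. Alas2 keeps 1 peak in each knockout sample, and the wide peak inside Alad after its start is absent or short in the knockout rows.

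Cpox encodes coproporphyrinogen oxidase, and its peaks covered 4566, 4823 and 5737 bp in wild type and 3256, 3386 and 3302 bp in knockout. The groups did not overlap and the log2 difference was -0.34 ± 0.09 (SE; limma, adjusted p = 0.0162), which no longer passed without KO2 (-0.30, limma adjusted p = 0.0561) or over the gene span alone (-0.50, limma adjusted p = 0.0569). Lost regions lay at -8.1 kb from the start on chromosome 16 (58661741 to 58662513, 598 ± 136 bp in wild type, SD, n = 3) and at 6.6 kb, inside the gene (58676669 to 58677009, 285 ± 62.8 bp). The region at 58662981 to 58663418, next to the former and over the start of the transcript Gm41464, kept its peaks in all samples at 350 ± 47.4 bp and 303 ± 35.3 bp. Cpox was the only protein-coding gene within its window.

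Urod, encoding uroporphyrinogen decarboxylase, and Ppox, encoding protoporphyrinogen oxidase, had 0 lost regions of 4 and of 7. Urod was covered for 2949, 3010 and 3568 bp in wild type and 1357, 2481 and 2117 bp in knockout, a log2 difference of -0.43 ± 0.16 (SE; limma, adjusted p = 0.0691). It passed without scaling (-0.66, limma adjusted p = 0.023) and over the gene span alone (-1.37, limma adjusted p = 0.00382), and the difference was -0.23 without KO1 (limma, adjusted p = 0.109). Within the region at its start, which also holds the start of Hectd3 (chromosome 4, 116993498 to 116996176), the covered bases were 2436 ± 169 bp in wild type and 1640 ± 426 bp in knockout (SD, n = 3 each). Ppox was covered for 5621, 5469 and 5211 bp in wild type and 3884, 4392 and 4490 bp in knockout, and these groups overlapped after scaling. Its log2 difference was -0.10 ± 0.08 (SE; limma, adjusted p = 0.341), and -0.34 without scaling (limma, adjusted p = 0.00864).

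Fech encodes ferrochelatase, and 3 of its 8 regions on chromosome 18 were lost. Its peaks covered 3147, 3518 and 3082 bp in wild type and 1479, 1258 and 1231 bp in knockout, a log2 difference of -0.96 ± 0.11 (SE; limma, adjusted p = 0.000369). Lost regions lay inside the gene at 64482461 to 64482919 (387 ± 63.0 bp in wild type, SD, n = 3) and 64485670 to 64486268 (555 ± 47.3 bp), and beyond its upper end at 64491030 to 64491617 (473 ± 99.1 bp). Between them, the region over the upper end of the gene (64488041 to 64489618) had peaks in all samples, at 1352 ± 197 bp in wild type and 1077 ± 154 bp in knockout (SD, n = 3 each), with overlapping groups. A region further inside the gene, at 64466700 to 64467079, had peaks in all knockout samples and in WT1 and WT2.

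Iron uptake was represented by Tfrc and Slc25a37. Tfrc had 11 peaks in each wild-type sample and 8, 6 and 7 in the knockout samples, covering 5451, 5505 and 5736 bp against 3747, 2974 and 2964 bp. The groups did not overlap and the log2 difference was -0.52 ± 0.11 (SE; limma, adjusted p = 0.00751). Of its 12 regions on chromosome 16, those at 32597847 to 32598436, at -10.8 kb from the outer start, and 32611991 to 32612481, at 3.3 kb, were lost (486 ± 50.2 and 407 ± 74.3 bp in wild type, SD, n = 3). The start region (32608264 to 32609706) was kept at 1316 ± 91.7 bp against 1020 ± 70.7 bp. A region just after it, at 32610205 to 32610855, was covered for 279, 544 and 439 bp in wild type and for 227 bp in KO3 alone among knockout samples. Beyond the gene, 4 regions lay within Tnk2. That at 32645067 to 32646026 was covered for 745 ± 60.4 bp in wild type and 419 ± 70.1 bp in knockout (-43.8%). That at 32650936 to 32651500 was covered for 539 ± 12.8 and 509 ± 14.3 bp (-5.5%). Both were lower in every knockout sample, counted as unscaled bases. The groups overlapped at 32643677 to 32644141 (401 ± 19.6 and 407 ± 38.0 bp), and the last, at 32644369 to 32644805, had peaks in WT1, WT3 and KO1 alone.

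Slc25a37 had 2 peaks in every wild-type sample, which covered 626, 611 and 617 bp. KO1 and KO3 had none and KO2 had 1 of 270 bp, and the log2 difference was -1.53 ± 0.34 (SE; limma, adjusted p = 0.00824). With so few bases the value depends on the pseudocount, being -2.73 with 50 bp and -0.53 with 1000 bp, where it is smaller than those of Uros (-1.15), Alad (-1.03) and Fech (-0.71). The region inside the gene on chromosome 14 (69248616 to 69248984, 299 ± 30.5 bp in wild type, SD, n = 3) was lost, and that at 69238224 to 69238622 was kept in KO2 alone among knockout samples. No list had a peak in the next 458 kb, which include the other 36.6 kb of the gene and its upper end, so these values rest on 2 regions, 1 below the gene and 1 near its lower end. Whether peaks or reads of that stretch were removed before deposit cannot be told from the lists.

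The start sites of most members kept a peak in the knockout samples. Of the 7 members with an entry in that promoter table, 6 had a peak over a start in all 6 samples. Counted by start, this was 8 of 10, where 36.0% of all starts had such a peak. For 4 of the members (Alad, Cpox, Ppox and Tfrc, with 6 of the 8 starts) this peak was narrower in every knockout sample than in every wild-type sample. That order held for 29.1% of the 11815 starts with a peak in all samples, whose median ratio of knockout to wild-type width was 0.936. A wider peak in every knockout sample was seen for 0 members and 8.49% of these starts. Cpox showed the narrowing most, with 1994, 1809 and 1872 bp in wild type against 1193, 1060 and 1023 bp in knockout, a ratio of 0.577. Ppox, whose covered bases as a whole did not pass, had 1704, 1708 and 2093 bp against 1285, 1181 and 1389 bp (ratio 0.70). The ratio was 0.776 for Tfrc, and for Alad 0.62, where widths were 1396, 699 and 827 bp in wild type and 525, 687 and 599 bp in knockout, with the nearest samples almost equal. The exact permutation test (two-sided) gave p = 0.1 for all 4, which is the lowest value possible with 3 samples a group, so 0.05 cannot be reached. For Urod (1204, 2402 and 2619 bp against 530, 1936 and 1832 bp, exact permutation p = 0.4) and the outer Uros start (ratio 0.917, exact permutation p = 0.2) the groups overlapped. Counted as unscaled bases within 1 kb of the start, all 8 starts of these 6 members were lower in every knockout sample, where 28.7% of the 11815 starts were.

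**Figure D4:**
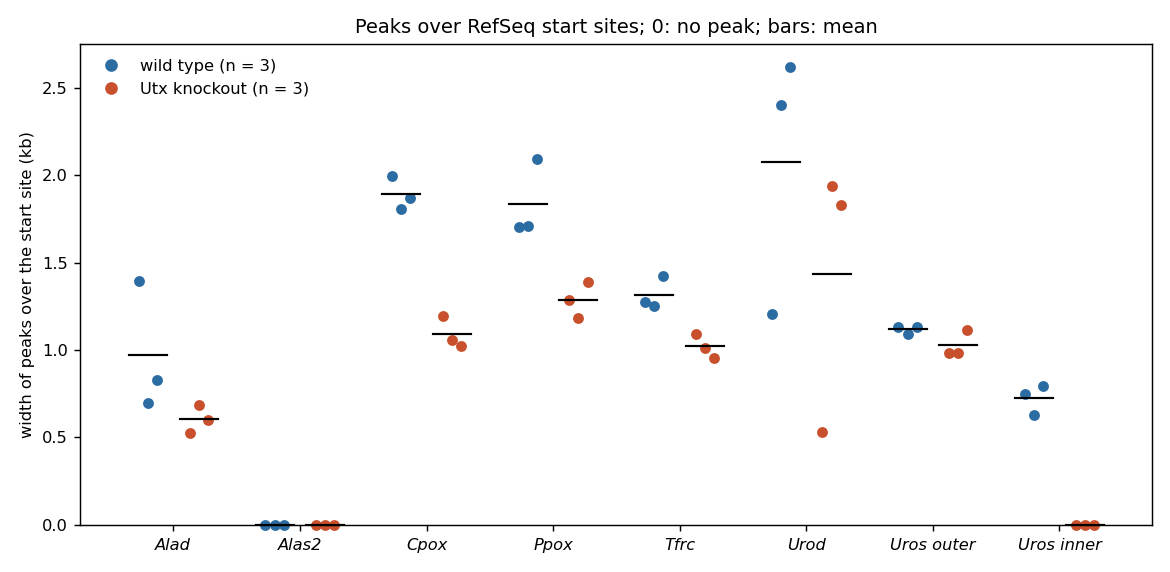
Width in kb of the peaks over RefSeq start sites in each sample (points; lines are means), with 0 for no peak; Alad and Tfrc have 2 starts under the same peaks and are drawn once. Alas2 has no peak over its start in any sample, and the inner Uros start has one in wild type alone.

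Of the 18 lost regions, 10 lay inside a member, 1 overlapped an end and 7 lay outside, and 5 also overlapped another gene. Their mean covered width in wild type ran from 285 to 804 bp. Their median length was 589 bp, against 444 bp for all 8042 lost regions of the series. Regions with peaks in all 6 samples numbered 22 of 65, where 42.9% of regions near all genes were such. Of the 22, 13 overlapped a start of some gene in the promoter table. Unscaled covered bases were lower in every knockout sample in 9 of the 22, where this held for 27.7% of such regions near all genes. They were higher in every knockout sample in 0 of the 22 (11.9% for all genes).

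Of 17 other genes of haem handling, 5 were called lower, 2 higher and 10 neither (limma), where 21.5% and 16.2% of all genes were called lower and higher. The median log2 difference was -0.13, and 12 of their 93 regions (12.9%) were lost, against 10.7% over all genes, so these shares lay near those of all genes. The largest fall was at Abcb10, a mitochondrial transporter of erythroid cells, at -1.34 ± 0.09 (SE; limma, adjusted p = 3.12e-05), with 5467, 6378 and 6734 bp covered in wild type and 1990, 1978 and 1865 bp in knockout. Slc25a38, which brings glycine into the mitochondrion, differed by -0.89, Tmem14c, which moves porphyrin within it, by -0.82 and Blvra, a biliverdin reductase, by -0.75. Alas1, the housekeeping counterpart of Alas2, went the other way at 0.31 ± 0.09 (SE; limma, adjusted p = 0.0258), with 0 of 11 regions lost. Its covered bases were 7276, 7982 and 6413 bp in wild type and 7094, 8291 and 7414 bp in knockout, which overlap before scaling, and without scaling the difference was 0.07 (limma, adjusted p = 0.546). Hmox2, a haem oxygenase, was at 0.32 (limma, adjusted p = 0.0424), 0.08 without scaling (limma, adjusted p = 0.48) and -0.01 over the gene span alone (limma, adjusted p = 0.978).

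Of 18 other iron genes, 10 were called lower, 1 higher and 7 neither (limma), against the same 21.5% and 16.2% over all genes. The median log2 difference was -0.30, and 20 of 121 regions (16.5%) were lost, against 10.7% over all genes. Snx3, a sorting protein that recycles the transferrin receptor, was at -1.04 ± 0.13 (SE; limma, adjusted p = 0.000449) with 5 of 7 regions lost. Glrx5, needed for iron-sulphur clusters, was at -0.96 ± 0.10 (SE; limma, adjusted p = 0.00017) with 4 of 11 lost. Ncoa4, which delivers ferritin for breakdown, and Slc11a2, which carries iron out of the endosome, were both at -0.86. Tfr2, a second transferrin receptor, was at -0.67, the iron exporter Slc40a1 at -0.59, the reductase Steap3 at -0.55, the iron regulatory protein gene Aco1 at -0.40, the ferritin subunit Fth1 at -0.31 and the iron chaperone Pcbp1 at -0.29. Over the gene span alone Aco1 and Pcbp1 turned to 0.05 and 0.07, and Slc40a1 (-0.31, limma adjusted p = 0.123) and Fth1 (-0.10, limma adjusted p = 0.374) did not pass. Within 50 kb neither Tfr2 (-0.17, limma adjusted p = 0.113) nor Aco1 (-0.07, limma adjusted p = 0.545) passed. Fbxl5, which degrades iron regulatory protein when iron is plentiful, was at 0.41 (limma, adjusted p = 0.0356) and 0.19 without scaling (limma, adjusted p = 0.28).

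Of these 18 calls in both lists, 10 passed whichever sample was left out and 8 did not. With limma, Alas1 failed without WT1, WT3, KO2 or KO3 (adjusted p = 0.0552, 0.0569, 0.0776 and 0.0671) and Hmox2 without WT2, WT3, KO1, KO2 or KO3 (adjusted p = 0.0747, 0.109, 0.11, 0.0561 and 0.107). Fbxl5 failed without WT2, WT3, KO2 or KO3 (limma, adjusted p = 0.105, 0.113, 0.0927 and 0.113), so none of the 3 higher calls held throughout. Steap3 failed without WT2, WT3 or KO1 (limma, adjusted p = 0.0566, 0.0748 and 0.0594) and Aco1 without WT3, KO2 or KO3 (0.0858, 0.0867 and 0.0878). Tfr2 failed without WT1, WT2 or KO1 (limma, adjusted p = 0.0573, 0.0589 and 0.0563), Fth1 without WT1 or WT2 (0.0591 and 0.0617) and Pcbp1 without WT1 or KO2 (0.0646 and 0.0548).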

How the data were processed

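The authors deposited 1 list of ATAC-seq peaks per sample. MACS2 and mm10 are named, with no version, per the submitters' processing notes. The deposited files hold chromosome, start and end, and no count, score or other signal column. The deposited file names carry the value 1e-11 after a p. The aligner, the read filters and any shift of insertion sites were not given in the sources used here. With no counts in the lists, depth is unknown and no interval that needs it was computed. Gene spans and starts came from RefSeq (GRCm38.p6). The start table holds 7 of the 9 members.

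Peaks sharing at least 1 bp were merged into regions. Bases covered by peaks in the gene span and 20 kb around it were scaled to the mean total, and genes with a mean of at least 200 bp were tested as log2(bases + 200 bp) with limma 3.58.1 (R 4.3.3, trend), Benjamini-Hochberg adjusted over all genes. Such differences understate changes of thinly covered genes. Single values used two-sided exact permutation tests over 20 assignments of 6 samples.

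The members, gene lists, motifs and tests were chosen with earlier results of these data known. Named were all members, their lost regions and start regions, other listed genes that passed the test, and Kdm6a, except that 1 listed gene is not reported here by name. Other regions were named after their values were seen. Alternatives are given in the closing section.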

Additional observations from a re-analysis of the deposited data

How the results depend on the processing

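The 7 members called lower numbered 6 to 9 under the alternatives tried, and Alas2, Alad, Uros, Fech and Tfrc passed under each of them. All 9 passed without scaling, where 41.9% of all genes were called lower. The count was 6 over the gene span alone and without KO2. Over all genes, 1985 and 3008 were then called lower, against 3490 (21.5%) in the main setting. Slc25a37 passed wherever it was tested, and over the gene span alone it fell under the minimum of covered bases. Alad and Uros were at -0.69 and -0.83 within 50 kb, and Alas2 and Alad at -2.55 and -2.32 over the gene span alone. Calls over all genes moved to 6802 lower and 1255 higher without scaling, and to 1985 and 1686 over the gene span alone. Lost regions near the members numbered 11 of 29 (37.9%) over the gene span alone, where fewer regions enter, against 18 of 65 (27.7%). Leaving out 1 sample gave 18 to 21 lost regions (28.6 to 32.8% of those near the members) and 0 to 2 gained (2 without KO1). Over the series, 8445 to 10326 regions were then lost and 3784 to 5047 gained. Gained regions numbered 2 of 65 where 2 of 3 samples sufficed, with 5651 gained over the series. They numbered 1 of 57 when each list was reduced to its 44576 widest peaks, and 2 of 103 within 50 kb. The share over all regions near genes (10.7% lost, 4.05% gained) was computed for the main setting alone. With the reduced lists 14 of 57 regions near the members were lost (24.6%), and over the series 4677 were lost and 4740 gained, against 8042 and 3566. Over the gene span alone Hmox2 (-0.0088), Aco1 (0.047) and Pcbp1 (0.0699) changed sign. Same-numbered samples did not deviate together (r = -0.03, 0.029 and 0.005). With a replicate block 8 members and 20.8% of all genes were called lower. Urod was added (-0.43, limma adjusted p = 0.035), and Fbxl5 did not pass (limma adjusted p = 0.0587). Unknown depth limits what an absent peak can show.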
